A study of Mus musculus with 4 samples.

Results

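The AP-1 family of mouse transcription factors comprises the Fos proteins (Fos, Fosb, Fosl1 and Fosl2) and the Jun proteins (Jun, Junb and Jund), and the mRNAs of these 7 genes were followed across 4 culture conditions. The members were taken by gene name from the array design, which gave 7 of 31087 gene names and 8 probes, 1 for each gene except Fosl2 with 2. The family was picked with its values on these arrays already known, so every difference given here is a description and none has a test. IMS32 is an immortalized line derived from mouse Schwann cells, the glia of peripheral nerve. The cells were kept for 1 h in DMEM with 5% FBS. The groups were 5 mM glucose with 1 mM pyruvate, [Glc 5 mM/Pyr (+)], 5 mM glucose without pyruvate, [Glc 5 mM/Pyr (−)], 15 mM glucose with 1 mM pyruvate, [Glc 15 mM/Pyr (+)], and 15 mM glucose without pyruvate, [Glc 15 mM/Pyr (−)]. The question was how the loss of pyruvate acts under normal and high glucose. Each group has 1 array, all are of this single line, and the number of cultures behind an array is not given in the sources used here.

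AP-1 is a dimer of basic leucine zipper proteins that binds short DNA elements and switches on target genes. Jun proteins pair with each other or with a Fos protein, whereas Fos proteins need a Jun partner. Fos, Fosb, Jun and Junb are classical immediate-early genes, whose transcription starts within minutes of a signal through MAP kinases and whose mRNAs decay fast, while Jund is more constantly expressed and Fosl1 and Fosl2 are usually later. In Schwann cells Jun is known for its role in the repair state after nerve injury, where it opposes myelination.

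The arrays read each mRNA with a 60-base probe, and the first 30 bases of the probes are shown because they fix which transcript stretch each value stands for. Positions are those of the array design in mm9. The probes lie at chr12:86817900-86817959 on the plus strand for Fos, chr4:94716928-94716987 on the minus strand for Jun, chr8:87501881-87501940 on the minus strand for Junb, and chr5:32455088-32455147 and chr5:32460076-32460135 on the plus strand for Fosl2. Exon or UTR annotation in mm9 was not used here.
Fos probe: ggactttattttccagtagatagaaatcaa
Jun probe: atgctaacgcagcagttgcaaacgttttga
Junb probe: agggctttgcggacggttttgtcaaagccc
Fosl2 probe A_51_P507242: gattgctgagctgcagaaggagaaggagaa
Fosl2 probe A_55_P1995195: gctatggaggaaagaacatattaaaaactt

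The bases upstream of the start sites are shown because 4 of these genes had their highest level, and 1 its lowest, in [Glc 15 mM/Pyr (−)]. For Junb, 1 of the 4, this held only by a step of 0.06, within the spot error given below. RefSeq promoters of GRCm38.p6 were given for 6 of the 7 genes, with Fosl1 as the exception. The 250 bases before the start site are printed 5′ to 3′ on the strand of the gene, and capitals mark the motifs found. They span chr12:85473640-85473889 for Fos, chr4:95052223-95052472 for Jun, chr8:84978749-84978998 for Junb, chr8:70697489-70697738 for Jund and chr5:32136222-32136471 for Fosl2.
Fos promoter: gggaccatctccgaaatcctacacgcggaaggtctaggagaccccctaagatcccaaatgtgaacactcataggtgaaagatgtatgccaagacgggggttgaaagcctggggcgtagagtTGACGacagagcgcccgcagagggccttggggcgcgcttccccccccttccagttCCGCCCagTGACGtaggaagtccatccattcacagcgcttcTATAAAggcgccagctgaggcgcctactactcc
Jun promoter: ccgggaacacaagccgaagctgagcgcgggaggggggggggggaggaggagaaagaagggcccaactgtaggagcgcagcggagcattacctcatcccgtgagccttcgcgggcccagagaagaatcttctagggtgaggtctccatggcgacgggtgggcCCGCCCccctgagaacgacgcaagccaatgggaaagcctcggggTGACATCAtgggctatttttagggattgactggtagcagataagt
Junb promoter: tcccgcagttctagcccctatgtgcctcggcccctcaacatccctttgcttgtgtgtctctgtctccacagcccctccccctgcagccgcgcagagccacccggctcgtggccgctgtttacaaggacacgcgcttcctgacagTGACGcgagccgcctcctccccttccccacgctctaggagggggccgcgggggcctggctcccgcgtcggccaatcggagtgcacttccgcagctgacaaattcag
Jund promoter: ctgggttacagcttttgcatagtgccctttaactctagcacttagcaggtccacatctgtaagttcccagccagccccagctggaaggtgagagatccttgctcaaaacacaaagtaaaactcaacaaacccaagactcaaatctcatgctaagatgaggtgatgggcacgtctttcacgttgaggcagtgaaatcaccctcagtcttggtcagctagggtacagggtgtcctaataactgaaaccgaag
Fosl2 promoter: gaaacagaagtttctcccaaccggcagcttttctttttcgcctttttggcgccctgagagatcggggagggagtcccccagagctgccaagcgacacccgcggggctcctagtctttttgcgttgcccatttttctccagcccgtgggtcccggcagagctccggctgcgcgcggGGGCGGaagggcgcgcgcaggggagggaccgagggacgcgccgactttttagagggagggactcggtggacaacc

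Motifs were sought on both strands from 250 bases before to 50 bases after each start, and positions are counted from the first transcribed base as +1. The Fos promoter held TGACG, the core of the cAMP response element to which CREB and ATF proteins bind, at -129 and -66, and TATAAA at -33. TGACG, which was added to the search after the sequences had been seen, also stood at -60 of Fosb and -106 of Junb, and 20.8% of 32851 promoters held it. The Jun promoter held TGACATCA, the variant AP-1 element described for this gene, at -45, against 3.62% of promoters. The GC box GGGCGG stood in Fos, Fosb, Fosl2 and Jun and in 35.7% of promoters. TATAAA stood in Fos and Junb and in 13.6%, but in Junb it began at +1, at the start itself and past the printed bases. The full element TGACGTCA (1.79% of promoters), the AP-1 element TGACTCA (5.2%) and the CArG box bound by serum response factor (1.63%) were in none of the 6 windows. Bases farther upstream were not searched, so these promoters may hold such elements, the CArG box included, outside the windows. In Jund none of these motifs was found. A motif match is a description of the letters, and says nothing on whether a factor was bound in these cells.

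Levels are log2 processed intensity relative to the 75th percentile of the array, so a level of 0 is that percentile and levels of different probes are not set against each other. Of the 39418 probes with a value on every array, 28467 to 30340 were well above background, and all 8 probes of the family were so on every array, with no saturated spot. The 75th percentile itself lay between 1598.3 and 1789 in intensity. The error given is the SD of a spot-by-spot difference between 2 arrays, the median over probes printed 10 times with a like signal, where all probes well above background were split by signal into a dim, a middle and a bright group of equal size. It covers the printing and scanning within 1 slide. It leaves out the variation between cultures, RNA preparations, labellings and hybridizations, for which there is no replicate. The scanner software also gives an error, set at 10% of the intensity. For Jund at 5 mM glucose it was 265 on 2645 with and 288 on 2876 without pyruvate. A difference beyond 2 of these SDs is thus larger than the spread between spots, and says nothing on the spread between cultures or RNA preparations. The Schwann cell genes Sox10 (intensity 4837 to 5667), S100b (3519 to 4319) and Ngfr (14827 to 18042) were well above background throughout. All 10 Schwann cell markers were well above background on the 4 arrays, and their summed level differed by 1.1-fold at most.

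Fos, the partner of Jun in the best known AP-1 dimer, differed most. Its probe was printed 10 times on each array, with 1 spot left out as an outlier in [Glc 5 mM/Pyr (+)]. At 5 mM glucose the mean intensity was 1071 ± 37.8 with and 783 ± 41.2 without pyruvate, and at 15 mM it was 623 ± 31.3 with and 3985 ± 216 without (SD between spots of 1 array, n = 9, 10, 10 and 10). The spots of the 4 arrays did not overlap, with 3670 to 4281 in [Glc 15 mM/Pyr (−)] against 568 to 664 in [Glc 15 mM/Pyr (+)].

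**Figure D1:**
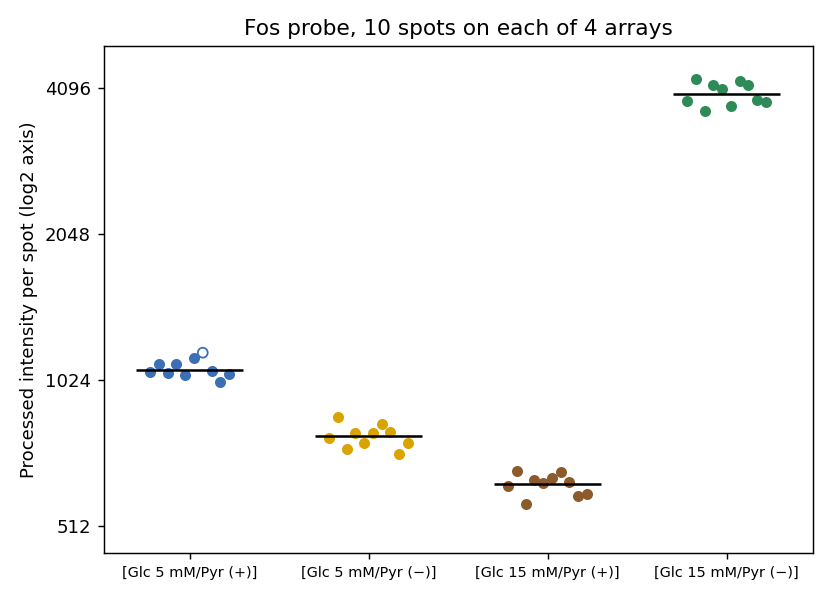
Processed intensity (log2 axis) of each spot of the Fos probe on the 4 arrays. Points are spots of 1 array, not cultures, bars are their means, and the open circle is the spot left out as an outlier. The spots in [Glc 15 mM/Pyr (−)] lie between 3670 and 4281, above every spot of the other arrays.

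At 15 mM glucose Fos was 6.26-fold higher without than with pyruvate, a log2 difference of 2.65 (spot SD 0.05). The 10 spot pairs gave 2.52 to 2.69. Only 5 of 27782 measured probes, with Fos among them, had a log2 difference at least as high, and in the tenth of probes with a like signal Fos had the highest value of 2759. At 5 mM glucose the difference had the opposite sign, -0.41 (spot SD 0.044), and the 9 spot pairs gave -0.48 to -0.32. Among the 2759 probes of like signal, 4 had a difference as low, Fos included.

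The same 4 arrays can be read for glucose. With pyruvate, Fos was lower at 15 than at 5 mM glucose, with a log2 difference of -0.62 (spot SD 0.046), and without pyruvate it was 5.43-fold higher, with 2.44 (spot SD 0.046). Scaled to the spike-in controls, the first of these was -0.97. The pyruvate difference at 15 mM minus that at 5 mM, the crossed difference, was 3.06, and 8 of 27589 probes measured on all arrays, Fos included, had one of this size. In the order of its levels Fos was highest in [Glc 15 mM/Pyr (−)], next in [Glc 5 mM/Pyr (+)] and then in [Glc 5 mM/Pyr (−)], and was lowest in [Glc 15 mM/Pyr (+)], with steps of 2.03, 0.41 and 0.2, each beyond 2 spot SDs. No array was repeated, so the Fos difference has no replicate check.

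Fosb, a close relative of Fos and also an immediate-early product, did not share this pattern. Its log2 level was 0.97 with and 0.52 without pyruvate at 5 mM glucose, and 0.63 with and 0.53 without at 15 mM. It was highest in [Glc 5 mM/Pyr (+)], and the step of 0.01 between the 2 lowest groups, both without pyruvate, was within the spot error. The pyruvate difference was -0.46 (spot SD 0.03) at 5 mM and -0.11 (spot SD 0.03) at 15 mM glucose. At 5 mM, 2 of 2759 probes of like signal were as low, Fosb included. Fos and Fosb were thus both lower without pyruvate at 5 mM glucose, by similar amounts, and parted at 15 mM.

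Fosl1, also called Fra-1, a Fos protein without the transactivation domain of Fos, was level. Its log2 level was 2.49 in [Glc 5 mM/Pyr (+)] and 2.45 in each of the other groups. The range over the 4 arrays was 0.05, and no step was beyond 2 spot SDs.

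Fosl2, or Fra-2, was the only member with its lowest level in [Glc 15 mM/Pyr (−)] by a step beyond 2 spot SDs. The brighter probe, A_55_P1995195, had log2 levels of 2.58 with and 2.55 without pyruvate at 5 mM glucose, and of 2.56 with and 2.12 without at 15 mM. The dim probe, A_51_P507242, had -4.25, -4.15, -4.22 and -4.71 in the same order. Both probes placed [Glc 15 mM/Pyr (−)] below the other 3 groups, which lay within 0.1 of each other on either probe. The pyruvate difference at 15 mM glucose was -0.44 on the first and -0.48 on the second probe, a mean of -0.46 (spot SD 0.08), and at 5 mM it was 0.03 (spot SD 0.082), within the spot error. For glucose the mean was 0.00 with pyruvate and -0.49 (spot SD 0.088) without.

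Jun, the main partner in AP-1, was highest in [Glc 15 mM/Pyr (−)]. Its log2 level was 4.41 with and 4.56 without pyruvate at 5 mM glucose, and 4.56 with and 5.09 without at 15 mM. The 2 middle groups did not differ beyond the spot error, and [Glc 5 mM/Pyr (+)] was lowest by a step of 0.15. The pyruvate difference was 0.15 (spot SD 0.03) at 5 mM and 0.53 (spot SD 0.03), or 1.45-fold, at 15 mM glucose. A 1.45-fold difference is modest in size, but 5 of 2759 probes of like signal, Jun included, were as high at 15 mM. Without pyruvate the glucose difference was 0.54 (spot SD 0.03), reached by 3 of these 2759 probes with Jun among them, and was 0.34 under spike-in scaling.

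Junb, a Jun protein that is a weaker activator and can oppose Jun, had different signs at the 2 glucose concentrations. Its log2 level was -2.96 with and -3.35 without pyruvate at 5 mM glucose, and -3.25 with and -2.9 without at 15 mM. It was high in [Glc 15 mM/Pyr (−)] and [Glc 5 mM/Pyr (+)], whose step of 0.06 was within the spot error, and lower in the other 2. The pyruvate difference was -0.39 (spot SD 0.044) at 5 mM and 0.35 (spot SD 0.05) at 15 mM glucose. Junb and Fos were the members whose pyruvate difference changed sign between the glucose concentrations with both values beyond 2 spot SDs. The crossed difference of Junb was 0.75, and 4.68% of probes of like signal had one of this size. With normexp background correction the pyruvate differences of Junb were -0.25 at 5 mM and 0.2 at 15 mM, and the crossed difference was 0.45.

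Jund, the Jun protein that is usually present in resting cells, was also highest in [Glc 15 mM/Pyr (−)]. Its log2 level was 0.56 with and 0.72 without pyruvate at 5 mM glucose, and 0.63 with and 1.15 without at 15 mM. All 3 steps in the order of its levels were beyond 2 spot SDs. The order of its lower groups did not hold under spike-in scaling, where its glucose difference with pyruvate was -0.28. The pyruvate difference was 0.16 (spot SD 0.03) at 5 mM and 0.52 (spot SD 0.03), or 1.43-fold, at 15 mM glucose, where 17 of 2759 probes of like signal were as high, Jund included. The crossed differences of Jund and Jun were 0.36 and 0.38. When the arrays were scaled to the spike-in controls, the small 5 mM pyruvate differences of Jun and Jund became -0.04 and -0.03, while those at 15 mM kept their sign.

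**Figure D2:**
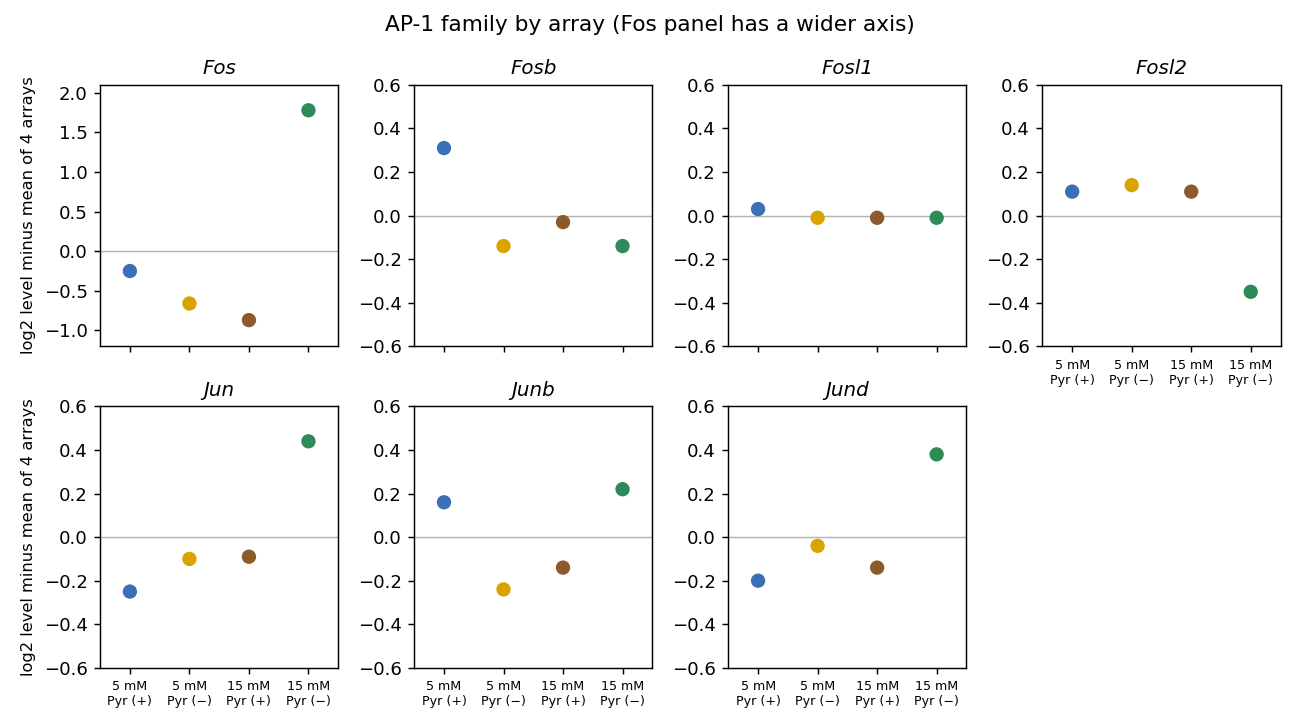
Log2 level of each AP-1 gene minus its mean over the 4 arrays, by condition, with 1 array per point and a wider vertical axis for Fos. Fos, Jun, Jund and, by a step within the spot error, Junb were highest in [Glc 15 mM/Pyr (−)], Fosl2 was lowest there, Fosb was highest in [Glc 5 mM/Pyr (+)], and Fosl1 had a range of 0.05.

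Across the family, 1 gene of 7, Fos, was past 2-fold higher without than with pyruvate at 15 mM glucose. In that comparison 0.954% of measured probes were past 2-fold higher and 1.14% past 2-fold lower. At 5 mM glucose 0 of 7 were past 2-fold in either direction, beside 0.567% of probes higher and 0.602% lower. For glucose, 0 of 7 were past 2-fold with pyruvate, beside 0.447% higher and 0.521% lower, and without pyruvate 1 of 7, again Fos, was past 2-fold higher, beside 0.95% higher and 1.45% lower. The split of all probes moved with the scaling. For glucose with pyruvate 126 probes were past 2-fold higher and 147 lower, against 67 and 428 under spike-in scaling, 171 and 108 under quantile normalization and 157 and 109 under cyclic loess. These shares rest mainly on dim probes. For pyruvate at 15 mM glucose, 4.43% of probes of the dim group were past 2-fold in either direction, against 1.32% of the middle group, which holds Fos and Junb, and 0.152% of the bright group, which holds Fosb, Fosl1, Jun, Jund and the brighter Fosl2 probe.

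At 15 mM glucose, 4 of the 7 members were higher and 3 lower without than with pyruvate. The median log2 difference was 0.35 against 0.029 over all probes, of which 56.1% were higher. At 5 mM glucose 3 were higher and 4 lower, with a median of -0.049 against -0.018 and 44.3% of all probes higher. With pyruvate, 3 were higher and 4 lower at 15 than at 5 mM glucose, with a median of -0.044 against -0.017 and 45.8% of all probes higher. Without pyruvate, 6 were higher at 15 than at 5 mM glucose and 1, Fosl2, lower. The median was 0.42 against 0.034, with 56.1% of all probes higher, although the values of Fosb (0.01) and Fosl1 (0.00) were within the spot error. The 4 comparisons share arrays in pairs, so their values are not separate evidence. For pyruvate at 15 mM glucose the family median was 0.2 in place of 0.35 when normexp background correction replaced the correction of the scanner software.

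**Figure D3:**
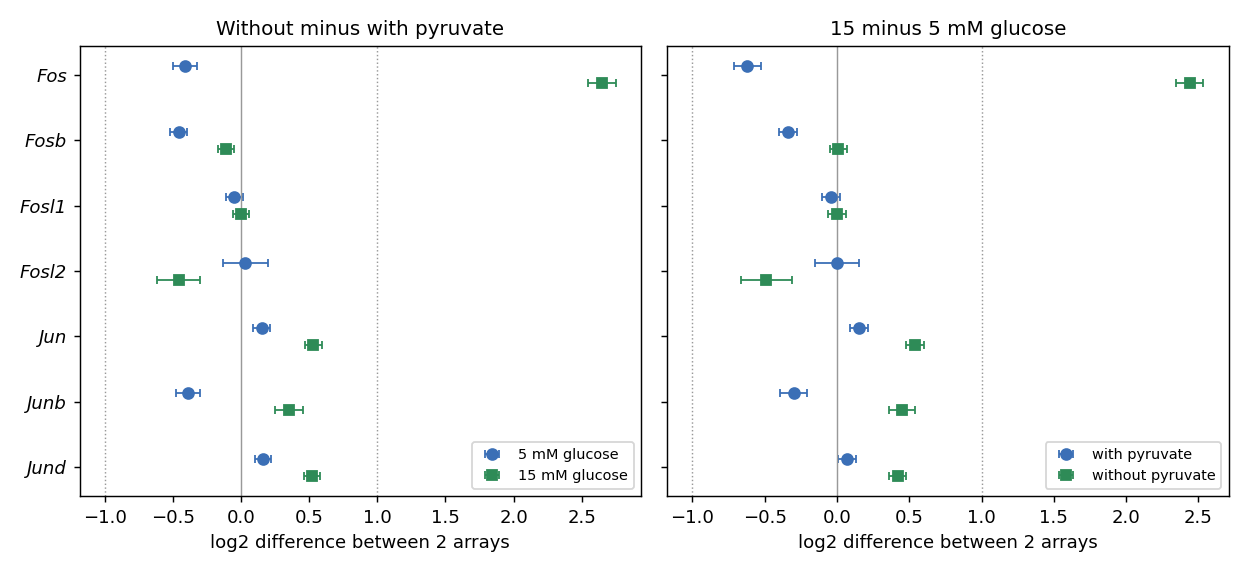
Log2 differences of the 7 genes for pyruvate (left, at 5 and 15 mM glucose) and for glucose (right, with and without pyruvate), each between 2 arrays. Bars are 2 spot SDs in each direction and dotted lines mark 2-fold. Fos lies at 2.65 and 2.44 in [Glc 15 mM/Pyr (−)] comparisons, and no other gene reached 2-fold.

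**Figure D4:**
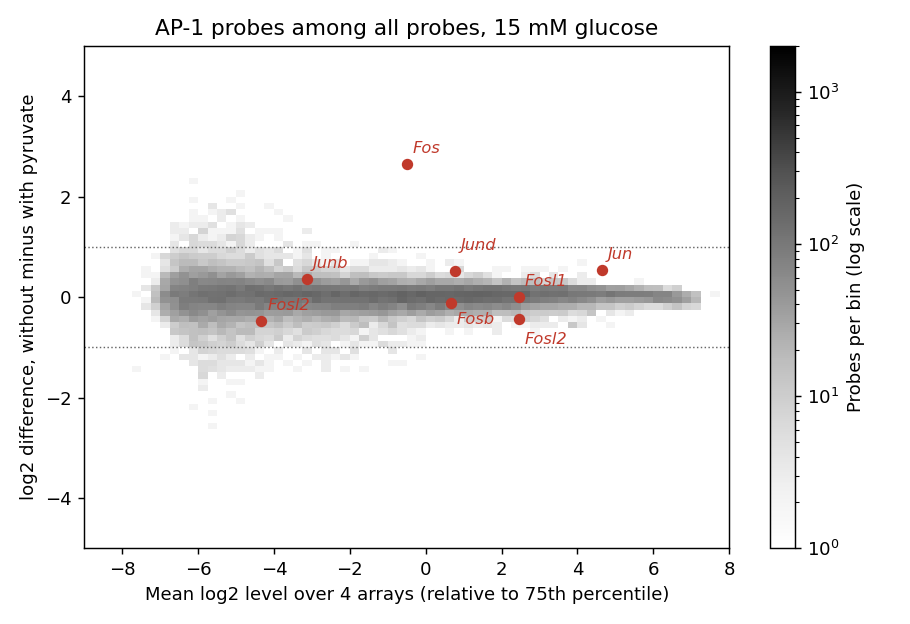
Log2 pyruvate difference at 15 mM glucose of all measured probes (grey, probes per bin on a log scale) against their mean log2 level over the 4 arrays, with the 8 AP-1 probes in red and dotted lines at 2-fold. The spread of all probes widens toward low levels, and Fos at 2.65 stands apart from the probes of like level.

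The other dimer partners and related leucine zipper genes were a list of 16, drawn up from their known roles. At 15 mM glucose, 12 of the 14 genes measured in both groups were higher and 2 lower in the absence of pyruvate, beside 56.1% of all probes higher, and the median log2 difference was 0.22. Atf3, a stress-induced partner of Jun, had an intensity of 1364 with and 1880 without pyruvate at 5 mM glucose, and of 1299 with and 2653 without at 15 mM. Atf3 was higher without pyruvate at both glucose concentrations, by 0.5 at 5 mM and 1.0 at 15 mM, where Fos had opposite signs. Ddit3, which encodes the stress factor CHOP, likewise had 0.56 and 1.08. These were the 2 genes of the list past 2-fold higher at 15 mM glucose, Atf3 only just.

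Jdp2, a repressor that dimerizes with Jun, had pyruvate differences of 0.04 at 5 mM and 0.26 at 15 mM. Batf3 had 0.25 and 0.26, and Batf2 had -0.03 and 0.17. Batf was well above background on 2 arrays only, with an intensity of at most 14.3.

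The genes that act before AP-1 showed no difference past 2-fold in any of the 4 comparisons. Of 22 genes of the MAP kinase cascades 21 were measured, with medians of -0.024 at 5 mM and -0.037 at 15 mM glucose for pyruvate. The largest pyruvate difference was -0.32 for Map2k7, a kinase that activates JNK and has a dim probe, at 5 mM and -0.37 for Braf, a kinase of the ERK cascade, at 15 mM. Of the 12 factors that act at the Fos and Jun promoters, 2 were higher and 10 lower without than with pyruvate at 15 mM glucose. Their median was -0.13, where 56.1% of all probes were higher with a median of 0.029. The largest values were -0.34 for Elk1, a cofactor of serum response factor, at 5 mM and -0.29 for Mef2c at 15 mM. The 2 Elk1 probes gave -0.1 and -0.58 at 5 mM, and the Mef2c probe was dim, with an intensity of at most 33.9. These mRNA levels do not measure kinase or factor activity.

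Among 12 genes for the turnover of Fos and Jun, Zfp36 stood out by size. It encodes tristetraprolin, a protein that binds AU-rich mRNAs and speeds their decay, and is itself an immediate-early gene. Its intensity was 242 with and 159 without pyruvate at 5 mM glucose, and 152 with and 278 without at 15 mM. The pyruvate difference was -0.56 at 5 mM and 0.84 at 15 mM glucose, with the signs of Fos and Junb, and no gene of the list was past 2-fold.

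Of 18 genes known as AP-1 targets 15 were measured, and none of these was past 2-fold in any comparison. In the pyruvate comparisons 5 were higher and 10 lower at 15 mM glucose, and the medians were -0.11 at 5 mM and -0.033 at 15 mM. The cytokine gene Il6 had -0.62 at 5 mM and -0.03 at 15 mM. Of 12 genes of the Schwann cell repair state that depend on Jun, 6 were higher and 6 lower in each comparison. The largest pyruvate differences of that list were -0.36 for Lif, with an intensity of at most 110, at 5 mM and 0.31 for Olig1 at 15 mM.

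**Figure D5:**
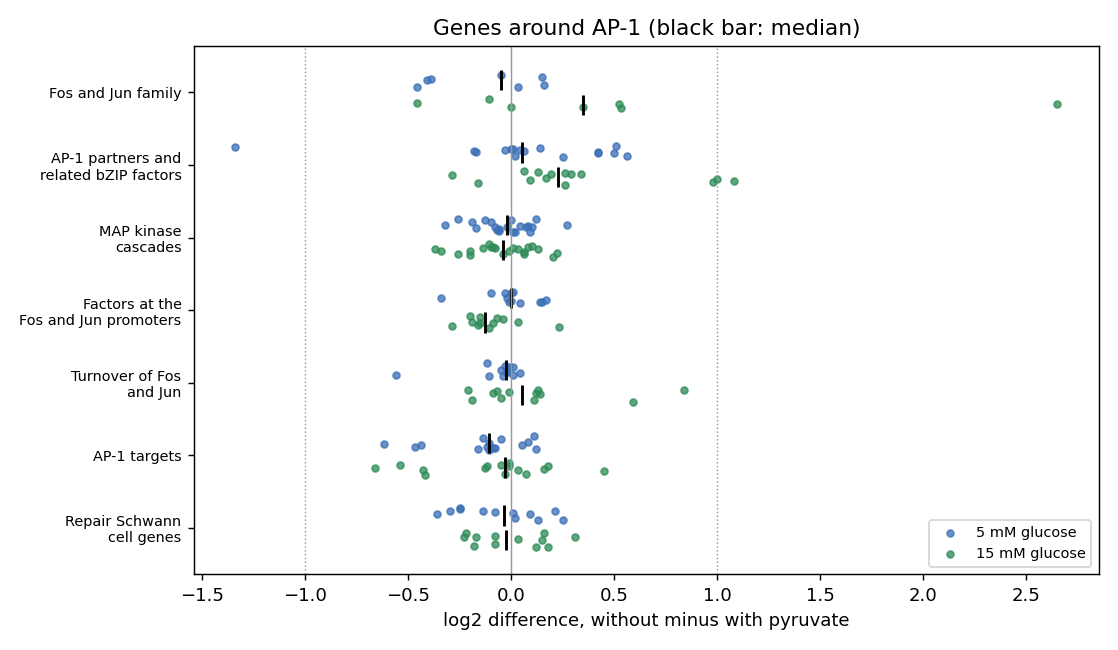
Log2 pyruvate differences at 5 mM (blue) and 15 mM (green) glucose for the AP-1 family and 6 lists of genes around it. Points are genes measured on both arrays, black bars are medians and dotted lines mark 2-fold. The family median is -0.049 at 5 mM and 0.35 at 15 mM glucose, and the target list has -0.11 and -0.033.

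The genes whose pattern over the 4 arrays was most like that of Fos were sought among 20337 genes by the root mean square distance of their centred log2 levels, each over 4 values. The nearest were Taar5 (0.07), Gm10209 (0.19), Cxcl16 (0.21), Cox7b2 (0.22) and Agrp (0.28). All of these had dim probes, with intensities from 12.2 to 107. Taar5, Gm10209, Cxcl16 and Cox7b2 had pyruvate differences with the signs of Fos, -0.23 to -0.12 at 5 mM and 2.13 to 2.69 at 15 mM glucose. Agrp had 0.15 and 2.19. Among the 13842 genes with signals in the middle and bright groups, a restriction chosen after seeing the data, the nearest were 5730407M17Rik (0.32), Rasl11b (0.32), Dusp1 (0.34), the unnamed probe A_55_P2116341 (0.4) and Gm13275 (0.41). Their pyruvate differences at 5 mM glucose were 0.04 to 0.33, against -0.41 for Fos, so none of these brighter genes had its change of sign. Dusp1 had pyruvate differences of 0.04 at 5 mM and 1.84 at 15 mM glucose, with intensities of 528, 529, 420 and 1533 in the order of the groups. No member other than Fos spanned a log2 range of 1, so none was searched for.

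Markers of other cell types were read as well. The cultures were a single immortalized line, and a marker signal on a bulk array does not show that another cell type was present. Well above background on the 4 arrays were 5 of 6 fibroblast markers with a summed level of 52.4 to 55.7 times the 75th percentile, 6 of 6 macrophage markers with 2.91 to 3.67, 5 of 6 neuron markers with 4.79 to 6.59 and 2 of 4 endothelial markers with 1.61 to 3.18. In [Glc 15 mM/Pyr (−)] these sums were 53.7, 3.24, 4.79 and 1.61. A sum is carried by its brightest genes, and gene by gene the neuron markers differed. For pyruvate at 15 mM glucose 4 of the 5 neuron markers measured in both groups were higher and 1 lower, with a median log2 difference of 0.3. Elavl3 was highest at 1.39 and Snap25 lowest at -0.18. Rbfox3 was at least 3.99-fold higher, a bound from a probe well above background on 1 of the 2 arrays only. For glucose without pyruvate 4 of 6 were higher and 2 lower, with a median of 0.58 and Snap25 lowest at -0.52. Past 2-fold higher were 2, Rbfox3 with 1.18 and Nefl with 1.22. For pyruvate at 15 mM glucose 4 of the 6 macrophage markers were higher and 2 lower, and the median was 0.052 with values from -0.27 for Ptprc to 0.88 for Cd68. Fibroblast markers had a median of -0.053 in that comparison. The endothelial marker Cdh5 was not well above background on any array. Whether these marker differences bear on the AP-1 differences was not tested.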

How the data were processed

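RNA of each condition was labelled with Cy3 and read on 1 one-colour array, with the 4 arrays on 1 slide. The authors deposited Feature Extraction 11.5.1.1 output, whose processed intensity is background-corrected and not scaled between arrays, and a table of the same intensity as a ratio to 1 constant per array near its 75th percentile. The settings of that scaling are not given in the sources used here.

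Controls and spots marked as outliers were dropped, and the remaining spots of a probe were averaged. Log2 intensity minus the 75th percentile of the array was calculated, and a gene is the mean of its probes. A probe was measured in a comparison if it was well above background on both arrays, and a probe dim on 1 gives a bound. The threshold was 2-fold. With 1 array per condition, no test was made, and the number of arrays limits the precision. The members and gene lists were chosen with earlier results of these data known. Besides the members, the text names Atf3, Jdp2 and the Batf genes, genes of each list past 2-fold or with the largest pyruvate difference, Schwann cell genes, and the 5 genes most like a member with a range of at least 1. A few genes named by it are not reported here, although list counts and medians include them. Cdh5, Ptprc, Cd68, Elavl3, Rbfox3, Nefl, Snap25, Junos and the genes most like Fos in the restricted search are named outside the rule, after their values were seen.

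Alternatives were another percentile set, spike-in scaling, quantile and cyclic loess normalization, normexp (offset 50), a 1.5-fold threshold, the brightest probe of a gene, other dim-probe filters and the deposited ratio. Calculations used Python 3.11.15, numpy 2.4.6, pandas 2.3.3 and limma 3.58.1 under R 4.3.3, and were tested on simulated data.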

Additional observations from a re-analysis of the deposited data

Results flagged for a closer look

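The pyruvate difference of Fos was lower at 5 mM and higher at 15 mM glucose, and the 2 values differed by 3.06 on the log2 scale. Read for glucose, the differences of Fos with and without pyruvate were also opposite and differed by the same 3.06. For Junb the pyruvate differences at 5 and 15 mM glucose were opposite and differed by 0.75, and the glucose differences with and without pyruvate were opposite and differed by 0.75. With normexp background correction the Junb difference was 0.45, and its glucose difference with pyruvate was -0.13 against -0.3. With 1 array per condition, these differences between conditions were not tested.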

How the results depend on the processing

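Over 11 settings, 401 values were recalculated, of which 334 moved by less than the spot error or kept their count, 67 moved, and 0 of the called values changed direction. Part of this count was fixed in advance. All 8 probes of the family were well above background on every array, so the dim-probe filters could not change the family values. The brightest-probe setting could act on Fosl2 alone, the only gene with 2 probes. Scaling to 8 of the 10 spike-in probes gave 36 of the 67, and shifted the median of all probes to -0.21, -0.0079, -0.37 and -0.17 for pyruvate at 5 and 15 mM and glucose with and without pyruvate. Under it the family median was -0.24 for pyruvate at 5 mM, and for glucose -0.39 with and 0.22 without pyruvate, and the median crossed difference was 0.51 against 0.36. Jun and Jund then had -0.2 and -0.28 for glucose with pyruvate. Under normexp the family median was 0.2 for pyruvate at 15 mM and 0.32 for glucose without pyruvate. At 1.5-fold, 1 member, Fos, was past the threshold for glucose with pyruvate against 0 at 2-fold. Of the 28 single differences 9 changed sign in at least 1 setting, 29 times in all. Their size in the main setting was at most 0.16, and values after the change went down to -0.35, for Fosl2 and glucose with pyruvate under spike-in scaling. The Fos difference for pyruvate was 2.51 to 2.65 at 15 mM and -0.6 to -0.35 at 5 mM over all settings, and for glucose -0.97 to -0.52 with and 2.24 to 2.44 without pyruvate. The number of probes past 2-fold higher for pyruvate at 15 mM was 265 in the main setting and 43 under normexp, and past 2-fold lower 318 and 57. Higher and lower probes for pyruvate at 5 mM were 165 and 175, against 111 and 262 under spike-in scaling and 6 and 4 under normexp. For glucose with pyruvate normexp gave 6 and 2, and without pyruvate the 268 and 410 of the main setting became 172 and 675 under spike-in scaling. The causes were not tested. No paired analysis was possible because each condition has 1 array, and for the same reason no replicate could be left out.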

Other observations

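Junos, a noncoding RNA transcribed away from the Jun start site, had an intensity of 12.9 with and 11.8 without pyruvate at 5 mM glucose and of 8.48 with and 10.3 without at 15 mM, and was well above background on 2 arrays, so it has no value at 15 mM glucose. It was picked out after its values were seen.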
